A study of Sus scrofa with 6 samples.

Results

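The sugar and monocarboxylate transporters of the SLC2A, SLC5A and SLC16A families were followed in IPEC-J2, a pig cell line of small intestinal (jejunal) epithelium that does not come from a tumour. The members were the gene IDs whose deposited symbol begins with SLC2A, SLC5A or SLC16A and a digit, which gave 38 of the 31908 gene IDs listed: 12 of SLC2A, 12 of SLC5A and 14 of SLC16A. One of the 12 SLC2A members, SLC2A4RG, encodes a transcription factor named for a carrier and is itself no carrier, so 37 carrier IDs remained. RNA was sequenced in 6 libraries, 3 after PBS (CON) and 3 after 50 μM of the primary bile acid chenodeoxycholic acid (CDCA), each for 24 h. Both groups were the same line at 1 dose and 1 time. The labels do not say that the libraries came from separate cultures, so p-values measure the spread between these libraries only.

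The SLC2A genes encode the GLUT proteins, which let hexoses and related polyols move down their gradients. The SLC5A genes encode sodium-coupled carriers, the SGLT proteins among them, which use the gradient kept by the sodium pump to draw in glucose, inositol, vitamins or iodide. The SLC16A genes encode the MCT proteins, some of which carry lactate, pyruvate and ketone bodies together with protons, while others carry aromatic amino acids or carnitine. In the intact small intestine, SGLT1 and GLUT5 take up glucose and fructose from the lumen, and GLUT2 passes hexoses on to the blood.

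Levels were given as TPM (transcript abundance per transcript length and library total, so that levels of different genes can be set side by side), summed over the listed transcripts of each gene ID. The table used holds no read counts, so the reads behind a single value are not known, although the study states the range of reads per library. The 8708 genes averaging 1 TPM or more were tested by limma on log2(TPM + 1), and log2 fold changes are CDCA against CON on that scale, which understates the change of low genes. A gene rose or fell where its FDR (Benjamini-Hochberg, over all 8708 genes) was under 0.05, and was called higher or lower where its log2 fold change was also over 1 in size. The listed TPM summed to between 351770 and 366073 in the 6 libraries. The mRNAs encoded in mtDNA made up 13.8% to 15.03% of this total for CON libraries, against 2.90% to 3.45% for CDCA libraries. With totals computed without them, the median log2 fold change of all tested genes moved by -0.13. In these bulk cultures, fewer cells that express a gene and less RNA of it per cell cannot be told apart.

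Of the 38 members, 18 passed the filter and 20 did not. Among the 18 tested members, SLC5A2 was called higher, and SLC2A5 and SLC16A3 were called lower. Over all tested genes, 3.51% were called higher and 3.90% lower, 7.42% together. Of the called genes 47.4% were higher, and 33.0% with totals computed without the mtDNA-encoded mRNAs. In all, 8 of the 18 members rose and 6 fell, against 29.3% and 23.9% of all tested genes (53.2% together), and 4 did not pass the test. The median log2 fold change was 0.04 for the 18 and 0.05 for all tested genes. Of the 18, 6 reached a mean of 1 TPM in 1 group only (SLC2A5, SLC2A6, SLC2A12, SLC5A2, SLC5A4 and SLC16A6), so these counts describe the genes that passed the filter and not the families. The groups did not overlap for 15 of the 18, with CDCA higher in 8 and lower in 7, against 61.6%, 33.8% and 27.8% of all tested genes.

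**Figure D1:**
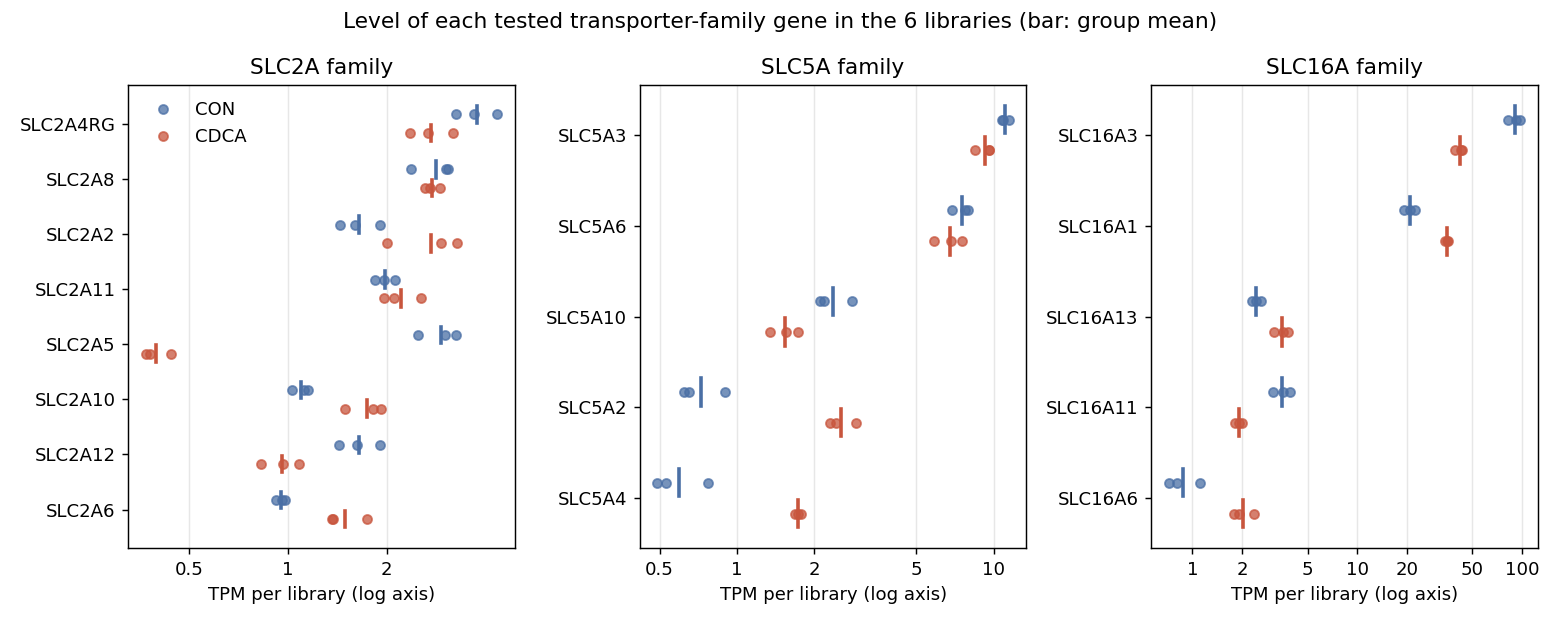
Level of the 18 tested family genes in each library, by family, in TPM on a log axis, with blue points for CON, red points for CDCA and a bar at each group mean. SLC16A3 and SLC16A1 lie above all other members, and the groups of SLC2A5, SLC5A2, SLC5A4, SLC16A1 and SLC16A3 lie apart.

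**Figure D2:**
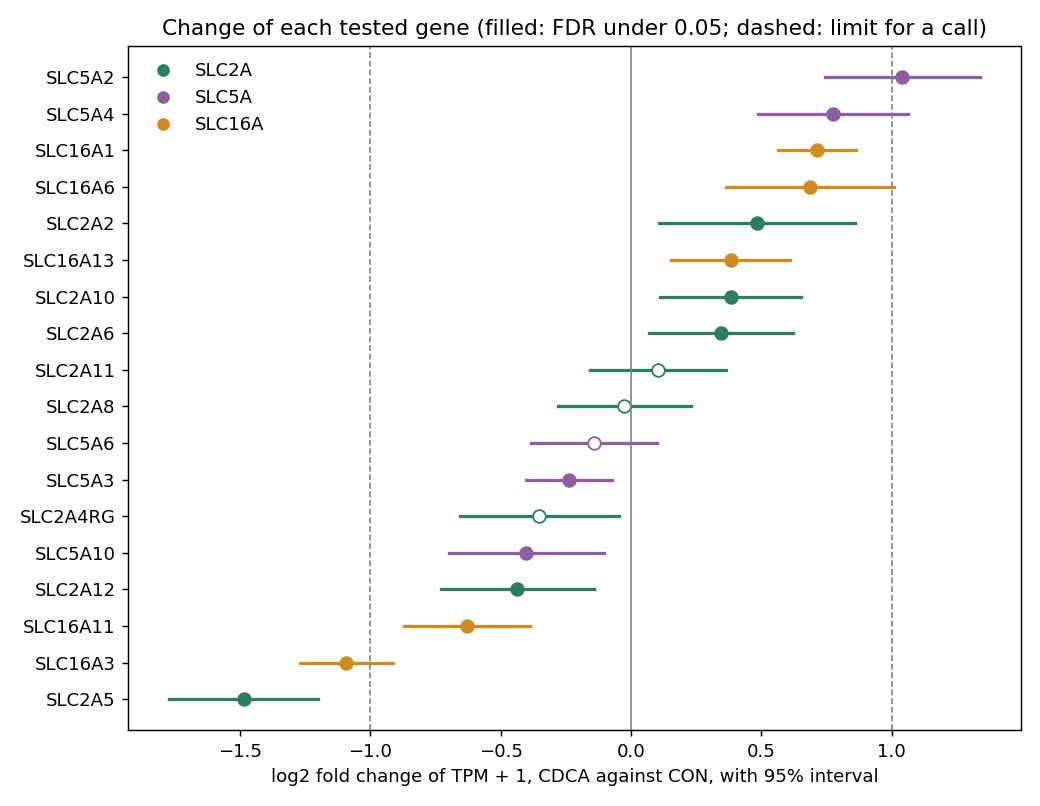
Log2 fold change of TPM + 1 in CDCA against CON for the 18 tested genes, with its 95% interval from limma, coloured by family. Filled points have an FDR under 0.05 and dashed lines mark the limit for a call, which SLC5A2 passes by 0.04 on the upper side and SLC16A3 and SLC2A5 pass on the lower side.

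The monocarboxylate transporters were the most abundant members, and their main pair moved in opposite directions. SLC16A3 (ENSSSCG00000024018) encodes MCT4, a low-affinity carrier known for the export of lactate from glycolytic cells. It was listed at 82.0, 97.8 and 91.7 TPM in CON, against 39.2, 43.5 and 43.0 TPM in CDCA. Every CDCA library lay under every CON library, and the mean was 90.5 ± 8.0 TPM in CON and 41.9 ± 2.3 TPM in CDCA (SD, n = 3), a ratio of 0.463. The log2 change was -1.09 (SE 0.08, limma FDR 5.8e-05), and SLC16A3 had 1 listed transcript.

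SLC16A1 (ENSSSCG00000006771) encodes MCT1, a carrier of higher affinity that moves lactate, pyruvate and short-chain fatty acids either way across the membrane. Its levels were 21.0, 22.6 and 19.3 TPM in CON and 34.3, 35.4 and 35.1 TPM in CDCA. The CDCA libraries lay close to each other and above all CON libraries. The mean was 21.0 ± 1.7 TPM in CON and 34.9 ± 0.55 TPM in CDCA (SD, n = 3), and SLC16A1 rose by 0.71 on the log2 scale (SE 0.06, limma FDR 0.00015), too small for a call. The rise lay in the most abundant of its 5 listed transcripts, at 18.9, 17.4 and 15.5 TPM in CON and 30.2, 29.0 and 30.5 TPM in CDCA (log2 fold change 0.76, limma FDR 0.00058 over the 12205 transcripts tested singly). The transcript of rank 2 stood at 1.92, 5.0 and 3.62 TPM in CON and 3.96, 6.11 and 4.55 TPM in CDCA, with overlapping groups (log2 fold change 0.42, limma FDR 0.27). Of all transcripts tested singly, 41.8% had an FDR under 0.05. LRIG2, which overlaps SLC16A1 in Sscrofa11.1, rose from 1.38 ± 0.28 TPM to 2.79 ± 0.39 TPM (SD, n = 3). How the authors assigned strand is not given in the sources used here.

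The proportion of both genes differed between the groups. SLC16A3 exceeded SLC16A1 by a factor of 3.90, 4.33 and 4.76 in the CON libraries and of 1.14, 1.23 and 1.22 in the CDCA libraries. SLC16A3 held 75.5% ± 1.8 (SD, n = 3) of the summed TPM of the SLC16A carriers in CON and 47.3% ± 1.4 (SD, n = 3) in CDCA, while SLC16A1 held 17.5% ± 1.3 and 39.5% ± 1.1. Their joint level was 103, 120 and 111 TPM in CON and 73.5, 78.8 and 78.1 TPM in CDCA. These are values built from members and were given no test of their own.

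**Figure D3:**
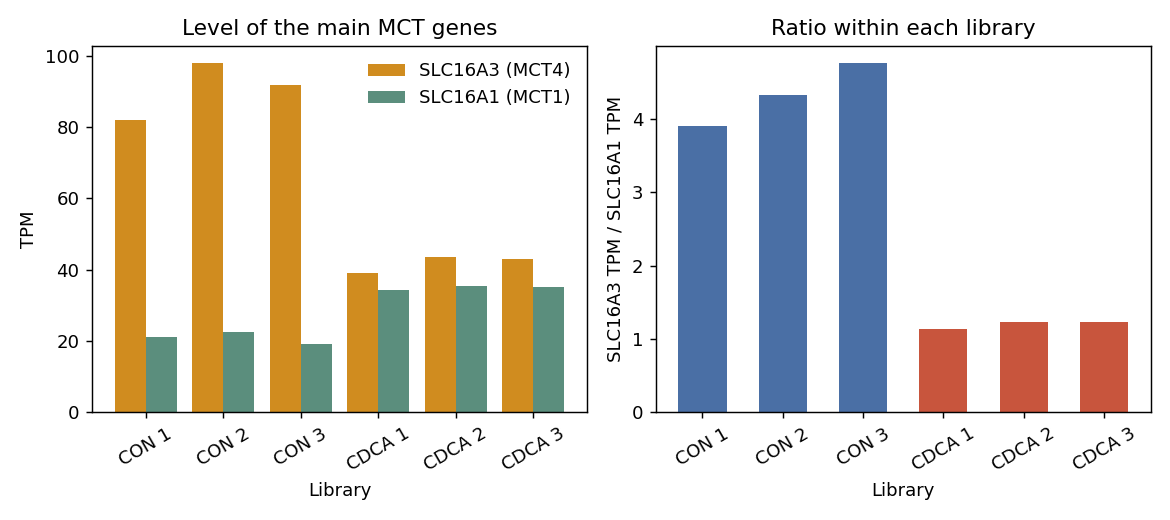
Level of SLC16A3 (MCT4) and SLC16A1 (MCT1) in TPM in each library on the left, and their ratio within each library on the right, with orange bars for SLC16A3 and green bars for SLC16A1 on the left, and blue bars for CON and red bars for CDCA on the right. The ratio runs from 3.90 to 4.76 for CON, against 1.14 to 1.23 for CDCA, since SLC16A3 is lower and SLC16A1 higher in each CDCA library.

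The other members of the lactate-carrying group were under 1 TPM. SLC16A7, which encodes the high-affinity carrier MCT2, stood at 0.62, 0.57 and 0.46 TPM in CON and 0.33, 0.43 and 0.36 TPM in CDCA and was not tested. SLC16A8, which encodes the MCT3 of the retinal pigment epithelium, did not exceed 0.13 TPM in any library. Lactate carriers need a chaperone at the cell surface, basigin or embigin. EMB (embigin) stood at 0.95, 1.05 and 0.31 TPM in CON and 2.05, 2.37 and 1.57 TPM in CDCA, and it rose by 0.78 on the log2 scale (SE 0.21, limma FDR 0.018). BSG had no entry under its symbol. A gene ID described as basigin (ENSSSCG00000027907), looked up after the other results were seen, stood at 59.5, 63.7 and 61.4 TPM in CON and 48.0, 42.7 and 37.7 TPM in CDCA, and it fell by 0.52 (SE 0.09, limma FDR 0.0026). The chaperone of MCT1 and MCT4 was thus lower and the rarer embigin higher in each CDCA library.

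SLC16A11 and SLC16A13 encode MCT11 and MCT13, neighbours whose gene spans overlap in the RefSeq annotation of the pig assembly Sscrofa11.1. SLC16A11 stood at 3.55, 3.90 and 3.09 TPM in CON and 1.91, 2.0 and 1.82 TPM in CDCA, and it fell by 0.63 (SE 0.10, limma FDR 0.0022). SLC16A13 stood at 2.29, 2.60 and 2.42 TPM in CON and 3.80, 3.13 and 3.53 TPM in CDCA, and it rose by 0.38 (SE 0.10, limma FDR 0.014). SLC16A11 was the higher of them in each CON library and SLC16A13 in each CDCA library. Their joint level overlapped between the groups, at 5.84, 6.50 and 5.51 TPM in CON and 5.71, 5.13 and 5.35 TPM in CDCA. Reads may have been divided between them by the authors' quantification, so their single values are uncertain. With totals computed without the mtDNA-encoded mRNAs, the FDR of SLC16A13 was 0.063, and without CDCA replicate 1 it was 0.053.

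SLC16A6 encodes MCT7, a carrier of ketone bodies. It stood at 1.12, 0.72 and 0.81 TPM in CON and 1.8, 1.93 and 2.36 TPM in CDCA, and it rose by 0.69 (SE 0.13, limma FDR 0.0053). All CDCA libraries lay above the CON libraries for the sum, whereas each of the 2 listed transcripts overlapped between the groups. The transcript of rank 1 stood at 0.80, 0 and 0.81 TPM in CON and 1.22, 0.40 and 1.62 TPM in CDCA, and that of rank 2 at 0.32, 0.72 and 0 TPM in CON and 0.58, 1.53 and 0.74 TPM in CDCA. Its span overlaps that of ARSG in Sscrofa11.1, which was listed at 0.08 to 0.29 TPM over the 6 libraries.

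Several SLC16A members that carry other substrates stayed under the filter and were not tested in the main comparison. SLC16A9, whose product carries carnitine, stood at 0.11, 0.15 and 0.04 TPM in CON and 0.52, 0.43 and 0.57 TPM in CDCA. SLC16A14, an orphan carrier, stood at 0.02, 0.04 and 0.03 TPM in CON and 0.23, 0.46 and 0.32 TPM in CDCA. For both genes every CDCA library lay above every CON library, all at levels under 1 TPM. When all genes above 0 were tested, their log2 fold changes were 0.45 and 0.37 (limma FDR 0.0045 and 0.0095). SLC16A7, SLC16A8, SLC5A1 and SLC5A7 did not pass the FDR in that run (limma FDR 0.11 to 0.23). SLC16A5, which encodes MCT6, was listed at 0 in the 3 CON libraries and at 1.28, 0 and 2.76 TPM in CDCA. SLC16A4 (0.23 to 0.62 TPM), SLC16A10 (0.06 to 0.15 TPM) and SLC16A12 (0 to 0.32 TPM) overlapped between the groups.

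Over all 14 members, the summed TPM of SLC16A was 111, 129 and 119 in CON and 84.7, 88.9 and 91.7 in CDCA. The sum followed SLC16A3, and without the proton-linked group the remaining 10 genes summed to 7.19 to 8.23 TPM in CON and 9.68 to 13.2 TPM in CDCA, SLC16A5 with its scattered values included.

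Among the GLUT genes, SLC2A5 changed most. SLC2A5 (ENSSSCG00000039651) encodes GLUT5, the fructose carrier of the enterocyte brush border. It was listed at 3.02, 2.49 and 3.26 TPM in CON, against 0.37, 0.38 and 0.44 TPM in CDCA. The groups lay far apart, with the highest CDCA library under 1 TPM and the lowest CON library above 2 TPM. The mean was 2.92 ± 0.39 TPM in CON and 0.397 ± 0.038 TPM in CDCA (SD, n = 3), a ratio of 0.136, and the log2 change was -1.49 (SE 0.12, limma FDR 0.00011). By the size of its log2 fold change, SLC2A5 stood at rank 245 of the 8708 tested genes. SLC2A5 had 1 listed transcript, and it made up 20.9% ± 3.7 (SD, n = 3) of the summed TPM of the SLC2A carriers in CON and 3.00% ± 0.16 (SD, n = 3) in CDCA. KHK, the ketohexokinase that phosphorylates fructose, rose by 0.37 (limma FDR 0.015), from 9.62 ± 0.51 TPM to 12.8 ± 1.5 TPM (SD, n = 3).

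SLC2A2 encodes GLUT2, the low-affinity hexose carrier of liver, pancreas and the basal side of the enterocyte. Its summed level was 1.60, 1.44 and 1.91 TPM in CON and 3.28, 2.01 and 2.92 TPM in CDCA, and it rose by 0.48 (SE 0.16, limma FDR 0.038). The lowest CDCA library lay only just above the highest CON library. The listed transcripts traded places between libraries. The transcript of rank 1 stood at 1.5, 1.25 and 0.80 TPM in CON and 1.23, 1.16 and 2.92 TPM in CDCA, and that of rank 2 at 0, 0 and 1.07 TPM in CON and 2.05, 0.85 and 0 TPM in CDCA. When the highest transcript took the place of the sum, the FDR of SLC2A2 was 0.20. It was 0.093 with totals computed without the mtDNA-encoded mRNAs, 0.091 with no filter on low values and 0.087 to 0.11 without CON replicate 1, CON replicate 2, CDCA replicate 1 or CDCA replicate 3.

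The class III carriers went both ways by small amounts. SLC2A10, which encodes GLUT10 of endomembranes, stood at 1.15, 1.12 and 1.03 TPM in CON and 1.49, 1.92 and 1.82 TPM in CDCA, and it rose by 0.38 (SE 0.11, limma FDR 0.027). SLC2A6, which encodes GLUT6 of lysosomal membranes, stood at 0.92, 0.98 and 0.96 TPM in CON and 1.36, 1.74 and 1.37 TPM in CDCA, and it rose by 0.35 (SE 0.12, limma FDR 0.041). SLC2A12, which encodes the glucose carrier GLUT12, stood at 1.91, 1.62 and 1.43 TPM in CON and 0.97, 0.83 and 1.08 TPM in CDCA, and it fell by 0.43 (SE 0.12, limma FDR 0.023). The groups did not overlap for any of these 3 genes. The FDR of SLC2A6 was over 0.05 without any 1 of the 6 libraries (0.065 to 0.12), that of SLC2A10 without any but CDCA replicate 1 (0.051 to 0.084), and that of SLC2A12 without CON replicate 1, CON replicate 2, CDCA replicate 1 or CDCA replicate 2 (0.055 to 0.068). With totals computed without the mtDNA-encoded mRNAs, the FDR was 0.063 for SLC2A10 and 0.093 for SLC2A6. With no filter on low values it was 0.0695 for SLC2A10, 0.10 for SLC2A6 and 0.061 for SLC2A12. SLC2A6 also lost the FDR with a pseudocount of 0.1 TPM (0.051) and with a scaling by median ratios (0.056), and SLC2A12 with the highest transcript in place of the sum (0.089).

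SLC2A8, which encodes the intracellular GLUT8, stood at 3.07, 3.03 and 2.37 TPM in CON and 2.72, 2.90 and 2.62 TPM in CDCA. Its log2 fold change was -0.02, with a 95% interval from -0.28 to 0.23 (limma FDR 0.86), and both transcripts that were tested singly overlapped between the groups. SLC2A11, which encodes GLUT11, stood at 1.97, 2.12 and 1.84 TPM in CON and 2.11, 1.96 and 2.55 TPM in CDCA (log2 fold change 0.10, 95% interval -0.16 to 0.37, limma FDR 0.46). Neither gene passed the test, and changes within these intervals were not detectable here. SLC2A13, the proton-coupled inositol carrier HMIT, had a mean just under 1 TPM and scattered widely, from 0.25 to 1.36 TPM in CON and from 0.59 to 1.12 TPM in CDCA. SLC2A4 (the insulin-responsive GLUT4), SLC2A7 and SLC2A9 (a urate carrier) stayed under 0.1 TPM in every library. SLC2A4RG, the transcription factor, stood at 3.26, 4.35 and 3.69 TPM in CON and 3.18, 2.68 and 2.35 TPM in CDCA, with a log2 change of -0.35 (SE 0.13, limma FDR 0.055), and its FDR was under 0.05 without CON replicate 1 (0.044) or CDCA replicate 1 (0.043), with totals computed without the mtDNA-encoded mRNAs (0.021), with a scaling by median ratios (0.039) and with no trend in the limma fit (0.049).

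The summed TPM of the 11 SLC2A carriers was 15.01, 14.1 and 13.1 in CON and 12.9, 12.9 and 13.9 in CDCA, so the groups overlapped. This sum leaves out the neuronal-type glucose carrier GLUT3, whose ID (ENSSSCG00000022925) bears no symbol and is described as SLC2A3. That ID, looked up after the other results were seen, stood at 4.14, 4.08 and 3.76 TPM in CON and 2.49, 2.81 and 2.90 TPM in CDCA, and it fell by 0.42 (SE 0.09, limma FDR 0.0066). SLC2A1 (GLUT1) was not analysed here.

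Of the sodium-coupled sugar carriers, SLC5A2 and SLC5A4 rose and the ID deposited as SLC5A10 fell. SLC5A2 (ENSSSCG00000024058) encodes SGLT2, best known for glucose reabsorption in the kidney. It was listed at 0.90, 0.65 and 0.62 TPM in CON, against 2.90, 2.31 and 2.43 TPM in CDCA, and the means stood at a ratio of 3.52. All CDCA libraries lay above 2 TPM and all CON libraries under 1 TPM. The log2 fold change was 1.04 (SE 0.12, 95% interval 0.74 to 1.34, limma FDR 0.0006), so the call stood at the edge of its limit. The call was lost without CDCA replicate 1 (0.97), without CON replicate 3 (0.999) and with totals computed without the mtDNA-encoded mRNAs (0.955), with the FDR under 0.05 in each. A neighbour, RUSF1, was listed at 4.02 ± 0.23 TPM in CON and 7.39 ± 0.19 TPM in CDCA (SD, n = 3), and it rose by 0.74 (limma FDR 0.00021). Under its older symbol, that gene overlaps SLC5A2 in Sscrofa11.1, and its part in the SLC5A2 value was not tested.

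SLC5A4, which encodes SGLT3, a low-affinity sugar carrier or glucose sensor depending on the species, stood at 0.53, 0.49 and 0.77 TPM in CON and 1.77, 1.73 and 1.68 TPM in CDCA. It rose by 0.78 (SE 0.12, limma FDR 0.0019), and the CDCA libraries were tightly grouped. With a pseudocount of 0.1 TPM, SLC5A4 was called higher. SLC5A1, the SGLT1 that takes up luminal glucose in the intact gut, was barely listed, at 0.18, 0.05 and 0.10 TPM in CON and 0.24, 0.18 and 0.33 TPM in CDCA. The groups of SLC5A1 met at 0.18 TPM, and the gene was not tested. Together, SLC5A2 and SLC5A4 summed to 1.43, 1.14 and 1.39 TPM in CON and 4.67, 4.04 and 4.11 TPM in CDCA.

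The most abundant SLC5A members were not sugar carriers. SLC5A3 (ENSSSCG00000034167) encodes SMIT1, which takes up myo-inositol and is known as a target of hypertonic stress. It stood at 10.8, 10.9 and 11.5 TPM in CON and 9.59, 9.62 and 8.48 TPM in CDCA, and it fell by 0.24 (SE 0.07, limma FDR 0.025). SLC5A3 overlaps MRPS6 in Sscrofa11.1, which fell by 0.49 (limma FDR 0.00049), from 76.2 ± 4.3 TPM to 53.8 ± 2.4 TPM (SD, n = 3), and reads of the 2 genes may have been divided between them. Without CON replicate 2, CON replicate 3 or CDCA replicate 3, the FDR of SLC5A3 lay between 0.059 and 0.071. SLC5A6 encodes SMVT, the carrier of biotin and pantothenate, and stood at 7.77, 7.97 and 6.87 TPM in CON and 7.56, 5.88 and 6.82 TPM in CDCA. The groups overlapped, and the log2 fold change of -0.14 had a 95% interval from -0.38 to 0.10 (limma FDR 0.28). ATRAID, which overlaps SLC5A6, rose from 26.7 ± 1.6 TPM to 45.6 ± 2.6 TPM (SD, n = 3).

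The ID deposited as SLC5A10 (ENSSSCG00000018049), a mannose and fructose carrier of the kidney also known as SGLT5, bears the symbol PRPSAP2 in the reference table of gene names, so the identity of its transcripts is uncertain. FAM83G, which overlaps SLC5A10 in Sscrofa11.1, rose from 13.2 ± 0.87 TPM to 26.4 ± 2.0 TPM (SD, n = 3). The ID deposited as SLC5A10 stood at 2.19, 2.10 and 2.82 TPM in CON and 1.73, 1.35 and 1.56 TPM in CDCA over 9 listed transcripts. This ID fell by 0.40 (SE 0.12, limma FDR 0.033). Without CON replicate 1 or 3 or CDCA replicate 2 or 3, its FDR lay between 0.053 and 0.093, and it was 0.078 with no filter on low values. The other SLC5A members were near 0. SLC5A7, the choline carrier of cholinergic neurons, stood at 0.04, 0.01 and 0.01 TPM in CON and 0.13, 0.07 and 0.05 TPM in CDCA. SLC5A8 and SLC5A12, the sodium-coupled monocarboxylate carriers, SLC5A9 and SLC5A11 stayed under 0.1 TPM, and SLC5A5, the iodide carrier of the thyroid, was listed at 0 in all libraries. The summed TPM of SLC5A overlapped between the groups, at 22.5, 22.2 and 22.7 in CON and 24.0, 21.2 and 21.4 in CDCA, while the part held by SLC5A3 and SLC5A6 was 82.8% ± 2.0 and 72.1% ± 0.91 (SD, n = 3).

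**Figure D4:**
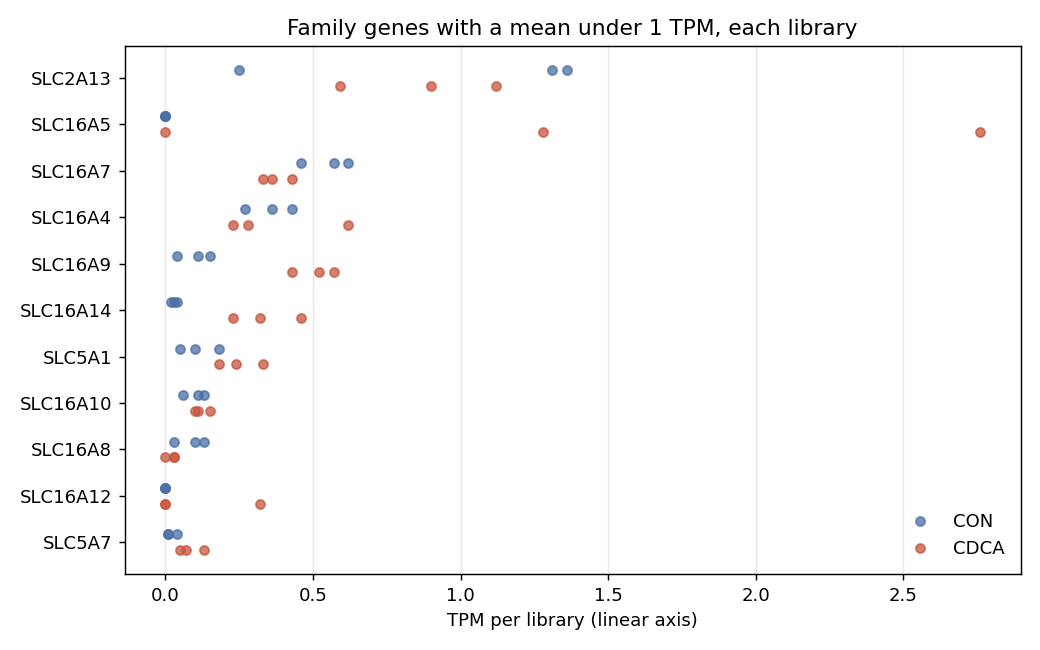
Level in each library, in TPM on a linear axis, of 11 family genes with a mean under 1 TPM that reach 0.1 TPM in at least 1 library, with blue points for CON and red points for CDCA. The groups of SLC16A9, SLC16A14 and SLC5A7 lie apart with CDCA higher and those of SLC16A7 with CDCA lower, and SLC16A5 is listed at 0 in the 3 CON libraries and in 1 CDCA library.

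Genes that work with these carriers were read from lists written from general knowledge. Of 73 such genes, 66 were listed by symbol and 43 tested; 10 rose, 17 fell and 16 did not pass the test, where 29.3% of all tested genes rose and 23.9% fell. The median log2 fold change was -0.14, against 0.05 for all tested genes. EPAS1 was called higher, and 6 genes were called lower (3.51% and 3.90% of all tested genes), HK2, LDHA, SLC37A2, SGK1 and PANK2 among them.

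Enzymes that trap hexoses in the cell included the 2 tested hexokinases of highest level, which both fell. HK2, the inducible hexokinase, stood at 48.5, 48.8 and 45.3 TPM in CON and 15.4, 15.1 and 15.9 TPM in CDCA, with a log2 change of -1.56 (SE 0.05, limma FDR 3.7e-06). HK1, the constitutive hexokinase, fell by 0.74 (SE 0.04, limma FDR 1.7e-05), from 187 ± 3.9 TPM to 112 ± 2.8 TPM (SD, n = 3). In the list of 11 hexose kinases and entry enzymes, 7 were tested, of which 3 fell and 1 rose (23.9% and 29.3% of all tested genes). LDHA, the lactate dehydrogenase subunit that favours lactate, stood at 1281, 1254 and 1210 TPM in CON and 467, 473 and 496 TPM in CDCA (log2 fold change -1.38, SE 0.04, limma FDR 2.9e-06). LDHA and SLC16A3 were thus both called lower. Of 5 tested lactate and pyruvate partners, 3 fell and 0 rose (23.9% and 29.3% of all tested genes). The others that fell were PDK1 (-0.34), which restrains pyruvate dehydrogenase, and PDHA1 (-0.14), a subunit of that enzyme.

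The sodium pump, whose gradient the SLC5A carriers use, was read from its beta subunits. ATP1B1 fell by 0.18 (limma FDR 0.036), from 89.8 ± 5.0 TPM to 79.0 ± 4.4 TPM (SD, n = 3). An ID described as the beta 3 subunit, looked up later, fell by 0.65 (limma FDR 3.9e-05). Besides basigin, the same lookup gave IDs described as PDZK1 interacting protein 1, which fell by 0.31 and 0.83 (limma FDR 0.0091 and 0.00062). An ID described as AKT serine/threonine kinase 1 fell by 0.64 (limma FDR 0.016). That of mitochondrial pyruvate carrier 1 did not pass the test (limma FDR 0.20).

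Among 12 tested genes that control glucose uptake, 4 rose and 3 fell, near the 29.3% and 23.9% of all tested genes. EPAS1, the hypoxia factor HIF-2α, stood at 2.0, 1.70 and 1.94 TPM in CON and 5.54, 4.73 and 4.37 TPM in CDCA (log2 fold change 1.03, SE 0.11, limma FDR 0.00031). Its relatives HIF1A and ARNT rose by 0.32 and 0.51. VHL, which marks the products of HIF1A and EPAS1 for degradation, rose by 0.37. SGK1, a kinase that raises the surface level of several carriers, was called lower at a log2 change of -1.02 (SE 0.08, limma FDR 1e-04). Its call stood at the edge of the limit, with 9.22 ± 0.88 TPM in CON and 4.04 ± 0.064 TPM in CDCA (SD, n = 3). TXNIP, an inhibitor of glucose uptake that follows the level of glucose, was at most 0.45 TPM in any library and was listed at 0 in 3 of them. The call of EPAS1 was lost with totals computed without the mtDNA-encoded mRNAs, with a scaling by median ratios, with the highest transcript in place of the sum, and without CON replicate 2 or CDCA replicate 1. The number of partner genes called lower, 6 as reported, was 5 without CON replicate 1 or with the highest transcript, 4 without CON replicate 2, 7 with a pseudocount of 0.1 TPM and 8 with the listed TPM rescaled to a full total.

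Partners of the vitamin and inositol carriers and genes of hormone handling moved in both directions. PANK2, which starts the conversion of pantothenate to coenzyme A, stood at 6.80, 6.18 and 6.33 TPM in CON and 0.66, 0.77 and 0.85 TPM in CDCA, with a log2 change of -2.08 (SE 0.09, limma FDR 1.1e-05). CRYM, which binds thyroid hormone in the cytosol, rose by 0.90 (limma FDR 5.8e-05) and THRA, its receptor, fell by 0.52 (limma FDR 0.0065). In the list of 16, 7 were tested, of which 4 fell and 1 rose (23.9% and 29.3% of all tested genes). Of 8 tested carriers of sugars or sugar phosphates outside the 3 families, 3 rose and 2 fell, near the same shares. SLC37A2, a sugar phosphate exchanger of the endoplasmic reticulum, was the most abundant, at 454, 474 and 460 TPM in CON and 223, 218 and 207 TPM in CDCA (log2 fold change -1.09, SE 0.04, limma FDR 6.4e-06). SLC37A4, which moves glucose 6-phosphate into the endoplasmic reticulum, rose by 0.57 (limma FDR 0.023).

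**Figure D5:**
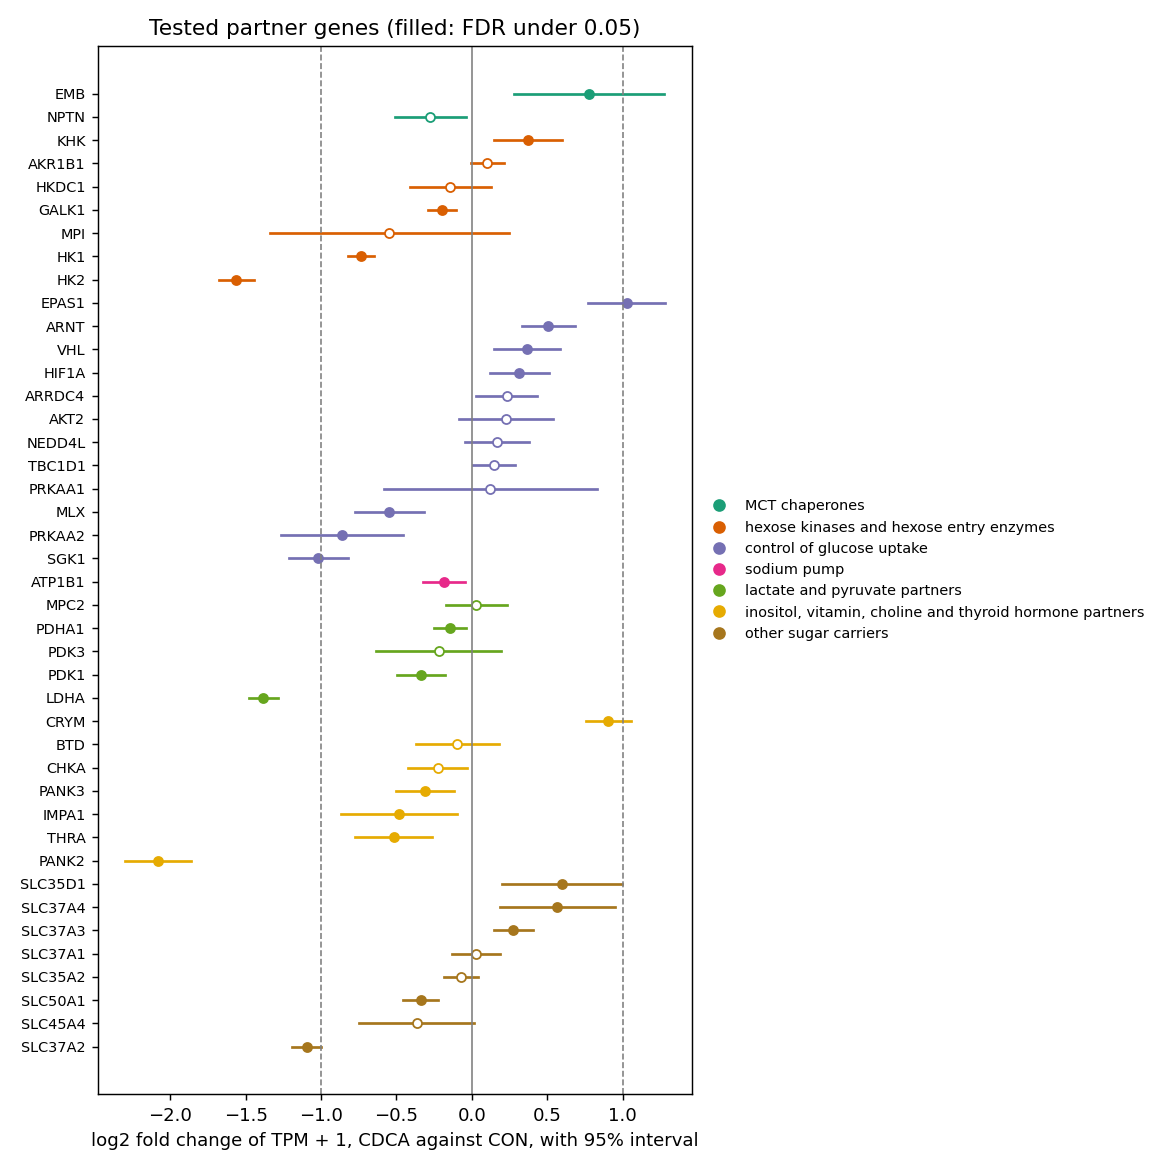
Log2 fold change of TPM + 1 in CDCA against CON for 42 tested partner genes, with its 95% interval from limma, coloured by list and with filled points for an FDR under 0.05. PANK2, HK2, LDHA, SLC37A2 and SGK1 lie beyond the lower limit for a call, and EPAS1 lies beyond the upper one.

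The labelled cell type was checked against markers. EPCAM (118 to 126 TPM in CON, 152 to 173 TPM in CDCA), KRT8 and KRT18 were well expressed, and CLDN4 was called higher with a log2 fold change of 1.84. CDH1, the E-cadherin of epithelia, stood at 0.31 to 0.58 TPM over the 6 libraries. Of the intestinal markers, CDX1, CDX2, FABP1 and FABP2 did not exceed 0.02 TPM, SLC15A1 did not exceed 0.12 TPM and VIL1 did not exceed 0.64 TPM. Of 8 such enterocyte genes, 6 were listed and 3 tested; APOA4 was called higher (1.86 to 2.08 TPM in CON, 6.74 to 10.2 TPM in CDCA), ANPEP rose (0.52 to 0.77 TPM in CON, 1.90 to 2.26 TPM in CDCA) and SI did not pass the test (0.74 to 1.66 TPM over the 6 libraries). The 6 fibroblast genes summed to 1.35 to 1.83 TPM in CON and 1.00 to 1.14 TPM in CDCA, the 5 immune genes to 3.16 to 4.56 TPM and 7.99 to 9.96 TPM, and the 4 endothelial genes to 2.21 to 2.75 TPM and 1.93 to 2.42 TPM. The immune sum moved with CD68 (0 to 0.26 TPM in CON, 4.44 to 5.33 TPM in CDCA), while PTPRC, the marker of all white blood cells, was at or near 0, with at most 0.01 TPM. The part of these markers in the carrier values was not tested.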

How the data were processed

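The authors prepared 6 libraries with an Illumina TruSeq kit, quantified them with RSEM and deposited TPM values. The table used here has 63041 rows, often several per gene ID, which bear no transcript IDs and were read as transcripts. The submitters' processing notes list mm10 and Bowtie 0.12.2, whereas the gene IDs are those of Ensembl for the pig. The build and annotation release behind the values are not given in the sources used here, so no coordinates are printed. The study states the range of reads per library, but the table gives none per gene, so no counting interval was given.

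TPM were summed per gene ID. Groups came from the sample labels. CDCA was compared with CON in R 4.3.3 with limma 3.58.1 (lmFit, eBayes with a trend, Benjamini-Hochberg adjustment) on log2(TPM + 1) for genes averaging 1 TPM or more. The study's own test needs counts and could not be run. The fit was tested on simulated data. Of the 38 members, 36 had an ID in the table of gene names, and 1 bore another symbol there. Every tested member was named, others where a library reached 0.1 TPM, and partner genes where called or fixed by name. BSG, EMB, TXNIP, HK1 and HK2 were those fixed by name; further genes in the text were picked after their values were seen. Members and lists were chosen with earlier results of these data known. Promoter and protein sequences were not used here. Values of some single genes are not reported here.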

Additional observations from a re-analysis of the deposited data

How the results depend on the processing

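SLC16A3 and SLC2A5 were called lower under each alternative run. The number of members called higher, 1 as reported, was 3 with a pseudocount of 0.1 TPM (SLC5A2, SLC5A4 and SLC16A6), 3 with the listed TPM rescaled to a full total (SLC5A2 and SLC5A4 among them), 0 with totals computed without the mtDNA-encoded mRNAs, and 0 to 1 with 1 library left out. The number that rose, 8 as reported, was 4 without the mtDNA-encoded mRNAs and 5 to 6 with a library left out, and 5 without CON replicate 1, CON replicate 2, CDCA replicate 1 or CDCA replicate 3. The number that fell, 6 as reported, was 4 to 6 with a library left out. The median log2 change over tested members, 0.04 as reported, was 0.10 with a minimum mean of 0.5 TPM, -0.069 without the mtDNA-encoded mRNAs, 0.0038 with a scaling by median ratios and -0.11 to 0.077 with a library left out. The cause of these moves was not tested. Over all genes, 306 were called higher and 340 lower as reported, 509 and 505 with the lower pseudocount, and 523 and 481 after rescaling. The log2 fold change of SLC2A8 was -0.11 to 0.023 with a library left out and turned positive without CON replicate 1 or CON replicate 2. With no filter on low values, 12 of 37 members passed the FDR. For this and the other alternative runs, the share of all tested genes past the FDR was not computed. The counts of members that rose, fell or passed there therefore cannot be read against it. Of 269 values of single members under an alternative, 217 kept their direction and side of the FDR, 45 lost the FDR, 5 gained it and 2 turned direction. A pairing of the libraries by replicate number did not show. Deviations of same-numbered libraries from their group means correlated at -0.04, -0.09 and -0.05, and those of differently numbered libraries at -0.03 to 0.07. With 3 libraries per group, a weak pairing could go unseen. With the replicate number as a block in the limma fit, 3 members fell in place of 6, 9 passed the FDR in place of 14, and the same 3 members were called. The reads behind single values are not known, so no counting error can be given for genes near 1 TPM.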
